A study of Mus musculus with 18 samples.

Results

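The genes described here encode proteins that build the Z-disc, titin and the M-band of the striated muscle sarcomere. The list names 34 genes, identifiers were matched to symbols with GENCODE M21, and a gene was kept if at least 3 libraries held 10 or more counts. Of the 34 genes 33 were kept, out of 15914 genes that passed the same rule and 49315 genes in the tables. The gene left out was Myoz3, which had 1 count in each of 2 KO libraries and 0 in the other 16 libraries. Expression was measured by RNA sequencing of tissue taken from the mid wall of the left ventricle; the mice were male and of strain 129SVE. The KO mice lack muscle LIM protein (MLP, encoded by Csrp3), a LIM-domain protein of the cardiomyocyte Z-disc, and are a model of dilated cardiomyopathy. They were sampled at 3, 6 and 10 weeks of age, beside WT mice of the same ages, sex and background. Each of the 6 groups had 3 libraries, and a library held 14980968 to 23001047 counts. The labels do not say whether the libraries of a group came from separate animals, so every p-value measures only the spread between these libraries. Where the null allele came from, and whether tissue of several animals was pooled, is not given in the sources used here.

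In the sarcomere, actin filaments of neighbouring units are anchored and crosslinked at the Z-disc by alpha-actinin, and titin spans from the Z-disc to the M-band, where myomesins crosslink the myosin filaments. Around this core sit LIM-domain, PDZ-LIM, filamin, desmin and Xin-repeat proteins that tie the Z-disc to the membrane, the intercalated disc and the rest of the cytoskeleton. In the heart many of these proteins are also known for their response to mechanical load, and mutations in several of them cause cardiomyopathy.

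The targeted gene did not separate the groups in the direction of its label. Csrp3 had 1134, 2703 and 1510.1 CPM (counts scaled to a common library size, adjusted by TMM) in the KO libraries at 3 weeks, against 1005, 951 and 1111 CPM in WT. At 6 weeks it had 2483, 1821 and 1792 CPM in KO and 1486, 1229.7 and 1392 CPM in WT, and at 10 weeks 2777, 3416 and 1501 CPM in KO and 1001, 1124 and 1018 CPM in WT. All 9 KO values were above all WT values of their own age. The log2 fold change of KO over WT was 0.80 ± 0.29 (SE), 0.57 ± 0.29 and 1.29 ± 0.30 at 3, 6 and 10 weeks, with adjusted p of 0.081, 0.19 and 0.0041 (edgeR quasi-likelihood test, Benjamini-Hochberg adjustment over 15778 genes). The deposited counts are sums over a whole gene, so they do not show which exons the reads came from, and the deleted part of the gene is not given in the sources used here. KO and WT therefore stand for the libraries so labelled. Some libraries stood apart. Some markers of atrial muscle were high in 1 KO library of each age, replicate 3 at 3 and 6 weeks and replicate 1 at 10 weeks, where 5 markers summed to 263, 833 and 2330 CPM, against 12.1 to 73.1 CPM in the other 15 libraries. Myl4, Myl7 and Sln carried these high sums. Bmp10 was at 0 in 16 libraries and at most 0.112 CPM, and Kcnj3 ran from 6.04 to 41.6 CPM over all libraries. The libraries called rich in atrial transcripts below were defined by Myl4 alone, at over 10 times its median. Mitochondrially encoded genes took 9.47%, 9.51% and 8.37% of counts on average in KO at the 3 ages, and 15.2%, 12.0% and 14.1% in WT; leaving these genes out of the fit left the same numbers of the listed genes called at each age.

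At each age more of the 33 genes were called higher in KO than lower, and the number called was largest at 10 weeks. A gene was called at an adjusted p under 0.05. At 3 weeks 19 of the 33 were higher in KO and 0 lower, against 15.3% of all genes called in either direction, of which 8.65% of all genes were higher and 6.68% lower. At 6 weeks 13 were higher and 1 lower (23.8% of all genes called, 11% higher and 12.8% lower), and at 10 weeks 26 were higher and 2 lower (29.3% of all genes called, 14.6% higher and 14.7% lower). In pieces of whole tissue like these, fewer cells of a type and less RNA per cell cannot be told apart. The median log2 fold change of the 33 genes was 0.55, 0.34 and 0.91 at 3, 6 and 10 weeks, where over all genes it was 0.00, 0.00 and -0.03. The 3 KO values lay entirely above the 3 WT values for 23, 22 and 25 of the 33 genes at these ages, and entirely below for 0, 2 and 2. Over all genes tested, the groups did not overlap in 30.5%, 44.2% and 40.5%, and KO lay entirely above WT in 15.7%, 21.9% and 19.2%.

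The 33 genes together took 3.96% ± 0.356, 4.58% ± 0.526 and 5.82% ± 0.898 of all counts in KO at 3, 6 and 10 weeks (SD, n = 3), against 2.55% ± 0.252, 2.82% ± 0.183 and 2.59% ± 0.145 in WT. On the CPM scale the 3 KO libraries at 10 weeks summed to 70209, 75187 and 50367, and the WT libraries to 25186, 27757 and 25639. The mean sums differed by 39061 CPM. Of that difference Xirp2 made up 14.9%, Flnc 11.9%, Mybpc3 9.70%, Des 8.71%, Ttn 7.95%, Xirp1 7.04%, Actn2 6.63% and Fhl1 6.21%. These are shares of reads, so long transcripts such as Ttn weigh more than short ones.

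**Figure D1:**
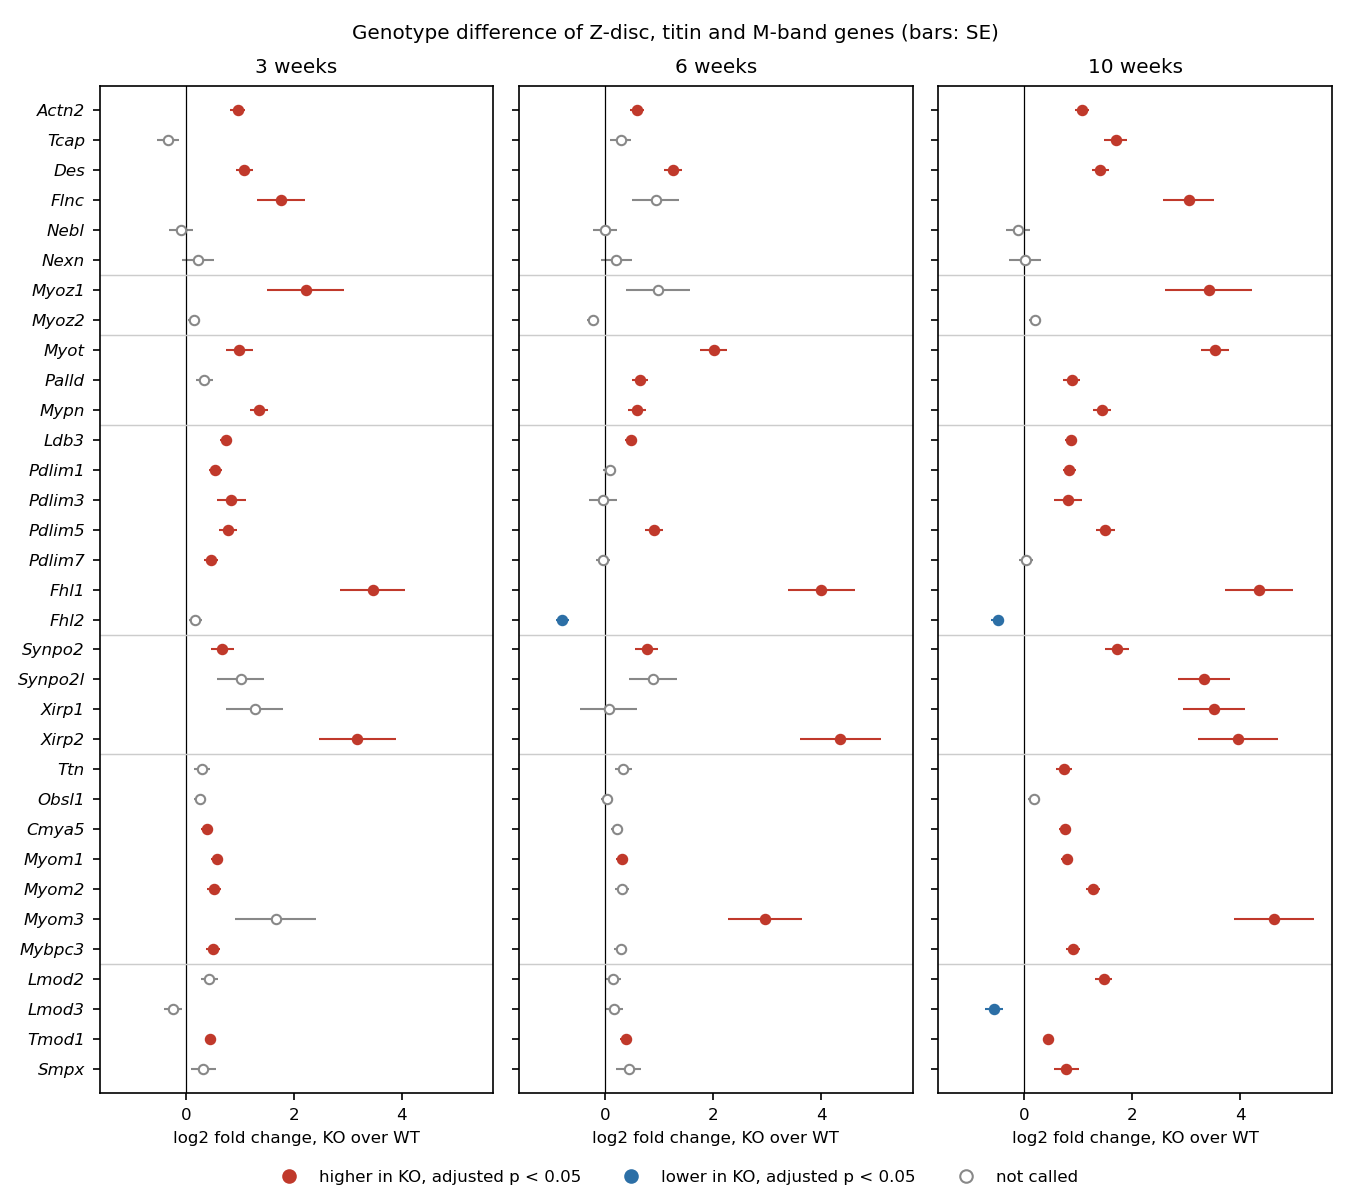
Log2 fold change of KO over WT with its standard error (horizontal axis) for the 33 tested genes (rows, ordered by protein role, separated by grey lines) at 3, 6 and 10 weeks. Filled red points are higher in KO and filled blue points lower in KO at an adjusted p under 0.05, and open points were not called. At 10 weeks 26 genes are red and 2, Fhl2 and Lmod3, are blue.

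The genes fell into a few patterns over age. Of the 33 genes, 11 were higher in KO at all 3 ages: Actn2, Des, Myot, Mypn, Ldb3, Pdlim5, Fhl1, Synpo2, Xirp2, Myom1 and Tmod1, where 3.75% of all genes were. The number lower at all 3 ages was 0, where it was 2.97% over all genes. Flnc, Myoz1, Pdlim1, Pdlim3, Cmya5, Myom2 and Mybpc3 were higher at 3 and 10 weeks and not called at 6 weeks. Tcap, Synpo2l, Xirp1, Ttn, Lmod2 and Smpx were higher at 10 weeks alone, and Palld and Myom3 at 6 and 10 weeks. Pdlim7 was higher at 3 weeks alone. Fhl2 was lower at 6 and 10 weeks and Lmod3 at 10 weeks. Nebl, Nexn, Myoz2 and Obsl1 were called at no age, where 56.6% of all genes were called at none. A gene called at 1 age and not at another is not thereby shown to differ between ages; the tests of that difference follow with the genes they concern.

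Promoter sequence was searched for known muscle motifs. RefSeq promoter windows (mouse build GRCm38.p6) were found for 26 of the 34 genes, and not for Tcap, Myoz1, Myoz3, Myot, Xirp1, Lmod3, Nexn and Myom2. In the 250 bases before a start site, 4 motifs were searched on both strands: the CArG box (bound by serum response factor), the MEF2 site, the E-box CANNTG and the M-CAT motif CATTCC (bound by TEAD factors). A gene counted if any of its start sites had the motif. The windows numbered 37 for the 26 genes and 32851 for 27025 genes, so a listed gene had more windows on average. A CArG box was found for 5 of the 26 genes (19.2%) and for 1.62% of 27025 genes with a window, and a MEF2 site for 8 (30.8%) and 3.42%. An E-box was found for 20 (76.9%) and 69.3%, and an M-CAT motif for 6 (23.1%) and 14.4%. The 5 sequences below are those of Fhl1, Xirp2, Myom3 and Synpo2l, which had a CArG box or MEF2 site and log2 fold changes above 3 at 10 weeks, and of Fhl2, which had both motifs and was lower in KO at 6 and 10 weeks. They were chosen for having a motif: Flnc, with a log2 fold change of 3.04 at 10 weeks, had neither motif in its 2 windows, the other window of Fhl1 had neither, and Nebl (CArG box) and Myoz2 (MEF2 site) were called at no age. Each runs 5′ to 3′ on the gene's strand and ends 1 base before the annotated start site, and capitals mark the CArG box or MEF2 site. The RefSeq start sites used for Fhl1 and Fhl2 lie inside the gene spans that the deposited tables give, so these are not their outermost starts; a match describes letters and is not a measured binding site.
Fhl1 (chrX:56779433-56779682, plus strand, CArG box at -102 to -93): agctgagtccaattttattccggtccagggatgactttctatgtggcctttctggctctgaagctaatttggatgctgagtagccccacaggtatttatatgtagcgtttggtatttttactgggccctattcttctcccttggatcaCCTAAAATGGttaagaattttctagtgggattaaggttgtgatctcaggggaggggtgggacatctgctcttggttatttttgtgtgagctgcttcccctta
Xirp2 (chr2:67445752-67446001, plus strand, MEF2 site at -74 to -65): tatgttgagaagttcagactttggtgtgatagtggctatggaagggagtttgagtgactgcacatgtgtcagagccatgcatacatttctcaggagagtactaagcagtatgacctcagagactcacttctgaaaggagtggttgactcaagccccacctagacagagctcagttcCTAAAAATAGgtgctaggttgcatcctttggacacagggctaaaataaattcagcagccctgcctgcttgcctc
Myom3 (chr4:135759465-135759714, plus strand, MEF2 site at -35 to -26): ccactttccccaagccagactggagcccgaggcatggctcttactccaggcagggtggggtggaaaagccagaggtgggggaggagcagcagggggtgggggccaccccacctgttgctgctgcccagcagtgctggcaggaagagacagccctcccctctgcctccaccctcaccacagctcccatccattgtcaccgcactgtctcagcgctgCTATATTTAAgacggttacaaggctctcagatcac
Synpo2l (chr14:20668355-20668604, minus strand, MEF2 site at -109 to -100): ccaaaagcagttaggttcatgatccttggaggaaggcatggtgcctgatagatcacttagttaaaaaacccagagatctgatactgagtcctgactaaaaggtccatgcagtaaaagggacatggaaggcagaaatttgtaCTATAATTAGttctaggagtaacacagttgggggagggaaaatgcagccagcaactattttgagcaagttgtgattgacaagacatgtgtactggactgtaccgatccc
Fhl2 (chr1:43196762-43197011, minus strand, CArG box at -96 to -87 and MEF2 site at -31 to -22): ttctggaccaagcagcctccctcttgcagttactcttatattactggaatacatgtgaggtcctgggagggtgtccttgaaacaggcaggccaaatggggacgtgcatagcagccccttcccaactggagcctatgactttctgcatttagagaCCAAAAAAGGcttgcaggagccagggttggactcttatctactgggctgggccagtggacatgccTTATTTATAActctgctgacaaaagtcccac

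The genes lie on many chromosomes. In the coordinates of the deposited tables (GRCm38), Fhl1 (ENSMUSG00000023092) at chrX:56731787-56793346 on the plus strand, Xirp1 (ENSMUSG00000079243) at chr9:120013755-120023598 on the minus strand and Xirp2 (ENSMUSG00000027022) at chr2:67446002-67526614 on the plus strand are protein-coding genes counted over their exons. Other genes with large differences were Flnc (ENSMUSG00000068699) at chr6:29433256-29461883 on the plus strand, Myom3 (ENSMUSG00000037139) at chr4:135759715-135815564 on the plus strand and Synpo2l (ENSMUSG00000039376) at chr14:20658946-20668354 on the minus strand. Tcap (ENSMUSG00000007877) at chr11:98383811-98384953 on the plus strand, Lmod2 (ENSMUSG00000029683) at chr6:24597762-24605414 on the plus strand and Fhl2 (ENSMUSG00000008136) at chr1:43123074-43196984 on the minus strand were among those whose difference changed with age. Myoz2 and Synpo2 lie 41.5 kb apart on chromosome 3, and Des and Obsl1 lie 111 kb apart on chromosome 1.

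Among the backbone and crosslinking proteins, desmin and alpha-actinin were higher in KO at each age, filamin C had the largest difference at 10 weeks, and nebulette and nexilin were not called. Des, the intermediate filament that links neighbouring Z-discs, had 2703, 3941 and 2609.7 CPM in KO at 3 weeks, against 1249, 1409.8 and 1709.9 CPM in WT. Its values were 4779.8, 4256 and 4238 CPM in KO and 1612, 1915 and 2024 CPM in WT at 6 weeks, and 4619, 6635 and 5119 CPM in KO and 1861, 2194 and 2115 CPM in WT at 10 weeks. The groups did not overlap at any age. Its log2 fold change was 1.08 ± 0.16, 1.26 ± 0.16 and 1.41 ± 0.16 (SE), with adjusted p of 8.3e-05, 6.8e-06 and 1.3e-06, and it kept its call in each of the 15 alternative fits at every age. Actn2, the muscle alpha-actinin that crosslinks actin, had 3827, 4079 and 3640.0 CPM at 3 weeks, 3514, 3435 and 3315 CPM at 6 weeks and 4483, 5659.9 and 4673 CPM at 10 weeks in KO. The WT libraries had 1536, 2098 and 2309.9 CPM at 3 weeks, 1975, 2348 and 2471 CPM at 6 weeks and 2222, 2492 and 2334 CPM at 10 weeks. Again no value overlapped, with log2 fold changes of 0.96 ± 0.13, 0.60 ± 0.13 and 1.07 ± 0.13 (adjusted p 3.4e-05, 0.0019 and 2.8e-06).

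Flnc, the muscle filamin that crosslinks actin at the Z-disc rim and the membrane, had 855, 968 and 1972 CPM at 3 weeks, 998, 828 and 946 CPM at 6 weeks and 7119.7, 6941 and 1828 CPM at 10 weeks in KO. The WT values were 259, 393 and 466 CPM at 3 weeks, 383, 530.2 and 534 CPM at 6 weeks and 644, 708 and 573 CPM at 10 weeks. The groups did not overlap at any age, but the KO libraries differed widely among themselves: replicate 3 stood above the other two at 3 weeks and far below them at 10 weeks. On the log2 scale the KO to WT fold was 1.76 ± 0.45, 0.94 ± 0.44 and 3.04 ± 0.47, with adjusted p of 0.019, 0.15 and 0.00032. The call at 3 weeks was lost without KO replicate 3, without WT replicate 1 or without WT replicate 2 (highest adjusted p 0.092). Within KO, Flnc rose by 2.52 log2 between 6 and 10 weeks (adjusted p 0.0038), which did not hold when only these 2 groups were fitted (adjusted p 0.077). Nebl, the cardiac nebulin relative that binds actin at the Z-disc, had log2 fold changes of -0.09, -0.01 and -0.11 at the 3 ages, and Nexn, an actin-binding Z-disc protein, of 0.23, 0.21 and 0.01; the SEs at 3 weeks were 0.22 and 0.29. At 10 weeks Nexn had 1099, 659.8 and 410.0 CPM in KO, on both sides of its 721, 699 and 730.4 CPM in WT.

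Tcap, or telethonin, which caps the Z-disc ends of a pair of titin molecules, followed age in both genotypes. It had 899, 479 and 805 CPM at 3 weeks, 1725, 1972 and 1908 CPM at 6 weeks and 1552, 1711 and 2414 CPM at 10 weeks in KO. WT libraries held 848, 931 and 975 CPM at 3 weeks, 1628, 1327 and 1644 CPM at 6 weeks and 475, 587 and 699 CPM at 10 weeks. The groups overlapped at 3 weeks and did not overlap at 6 weeks, with log2 fold changes of -0.34 ± 0.20 and 0.29 ± 0.20 (adjusted p 0.29 and 0.34). At 10 weeks all KO values were above all WT values, with a log2 fold change of 1.69 ± 0.20 (adjusted p 6.6e-06). Within KO, Tcap rose by 1.36 log2 between 3 and 6 weeks (adjusted p 0.00029) and had a log2 change of 0.02 between 6 and 10 weeks, which was not called (SE 0.20). Within WT, it rose by 0.74 log2 between 3 and 6 weeks (adjusted p 0.040, lost in 5 leave-one-out fits) and fell by 1.38 log2 between 6 and 10 weeks (adjusted p 0.00035). The genotype difference was larger at 10 than at 6 weeks by 1.40 ± 0.28 log2 (adjusted p 0.0071) and larger at 10 than at 3 weeks by 2.02 ± 0.28 log2 (adjusted p 0.00031). Both differences kept their call in all 21 alternative fits.

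**Figure D2:**
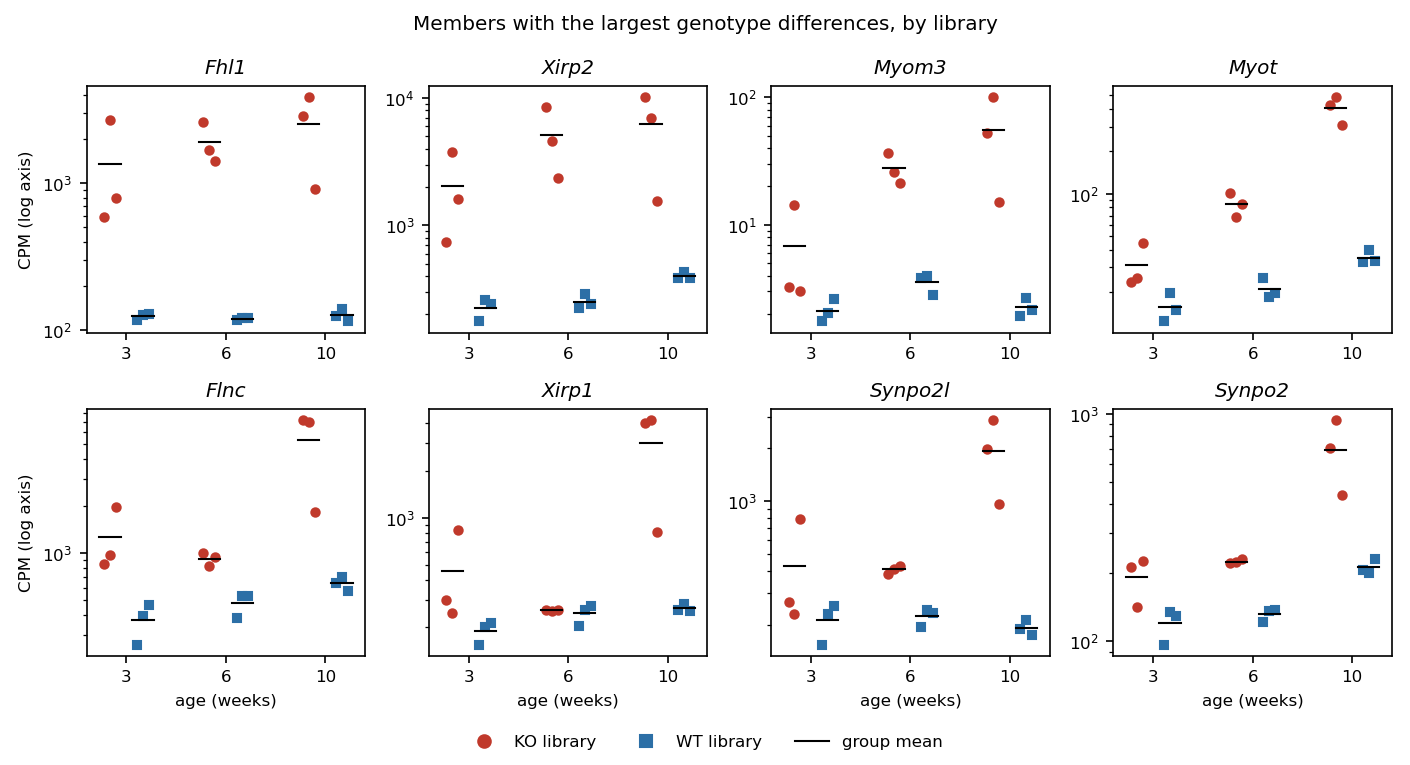
CPM in each library (vertical log axis) by age (horizontal axis) for 8 genes with large genotype differences. Red circles are KO libraries, blue squares WT libraries and black bars group means. Fhl1 lies between 114 and 138 CPM in all 9 WT libraries and between 585 and 3870.3 CPM in the KO libraries, and the KO libraries at 6 weeks lie close to WT for Xirp1.

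The myozenins, which bind alpha-actinin and the phosphatase calcineurin, differed in whether they were expressed at all. Myoz2, the cardiac form, had 1033, 1146 and 1117 CPM in KO and 879, 909 and 1082 CPM in WT at 10 weeks and was not called at any age (log2 fold changes 0.15, -0.22 and 0.20). Myoz1, the form of fast skeletal muscle, was near the limit of detection. It had 15, 8 and 19 counts in KO at 3 weeks, against 3, 3 and 2 in WT, and 12, 22 and 6 counts in KO at 10 weeks, against 0, 4 and 0 in WT. It was higher in KO at 3 weeks (log2 fold change 2.22 ± 0.72, adjusted p 0.041, lost in 7 of 14 alternative fits) and at 10 weeks (3.41 ± 0.81, adjusted p 0.0028). The fitted fold at 10 weeks depends on the few WT counts. Myoz1 lies 2.41 kb downstream of Synpo2l on the same strand of chromosome 14, and whether reads from one are counted in the other was not tested.

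Myotilin, palladin and myopalladin are related immunoglobulin-domain proteins that bind alpha-actinin and actin. Myot showed the steepest rise with age of the 3. It had 23.7, 25.4 and 44.5 CPM at 3 weeks, 101, 68.7 and 85.0 CPM at 6 weeks and 429.6, 486 and 308 CPM at 10 weeks in KO. Its WT values stood at 12.4, 19.7 and 14.9 CPM at 3 weeks, 25.1, 18.5 and 19.7 CPM at 6 weeks and 32.8, 39.5 and 33.3 CPM at 10 weeks. KO values were above all WT values at each age, and each KO library at 10 weeks was above each KO library at 6 weeks. KO over WT came to log2 fold changes of 0.99 ± 0.25, 2.01 ± 0.25 and 3.53 ± 0.26 (adjusted p 0.014, 2.3e-05 and 6.6e-08); the call at 3 weeks was lost without KO replicate 3 or WT replicate 1 (highest adjusted p 0.080). Its genotype difference was larger at 10 than at 3 weeks by 2.54 ± 0.35 log2 (adjusted p 0.00042) and larger at 10 than at 6 weeks by 1.52 ± 0.34 log2 (adjusted p 0.017). Per kilobase of exon, Myot averaged 185 CPM/kb in KO at 10 weeks and 15.9 CPM/kb in WT, and it ranked 18 among the 34 genes in KO and 27 in WT.

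Mypn, which binds alpha-actinin and the nebulin family at the Z-disc, had 234, 184 and 302 CPM at 3 weeks, 150.4, 159 and 168 CPM at 6 weeks and 453, 514 and 341 CPM at 10 weeks in KO. In WT it had 75.9, 102 and 103 CPM at 3 weeks, 90.6, 113 and 115 CPM at 6 weeks and 159.9, 167 and 155 CPM at 10 weeks. Groups did not overlap at any age, and the KO level at 6 weeks lay below those at 3 and 10 weeks: within KO it fell by 0.59 log2 between 3 and 6 weeks (adjusted p 0.025, lost in 5 of 15 alternative fits) and rose by 1.45 between 6 and 10 weeks (adjusted p 2.9e-05). The log2 fold change over WT was 1.36 ± 0.17, 0.58 ± 0.17 and 1.44 ± 0.17 (adjusted p 1.5e-05, 0.014 and 2.3e-06). Palld, the most widely expressed of the family, had log2 fold changes of 0.34 ± 0.15, 0.65 ± 0.16 and 0.88 ± 0.16 (adjusted p 0.15, 0.0040 and 0.00023), and averaged 521 ± 146 CPM in KO and 284 ± 4.51 CPM in WT at 10 weeks (SD, n = 3).

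The four-and-a-half LIM proteins differed in opposite directions. Both bind titin's elastic region in the I-band and are known as partners in stretch signalling. Fhl1 had 585, 2721 and 789 CPM at 3 weeks, 2642, 1701 and 1411 CPM at 6 weeks and 2862, 3870.3 and 918 CPM at 10 weeks in KO. WT hearts gave 117, 127 and 129 CPM at 3 weeks, 118, 120.0 and 119.7 CPM at 6 weeks and 124, 138 and 114 CPM at 10 weeks. Every KO value was above every WT value of any age, and replicate 2 at 3 weeks and replicate 3 at 10 weeks stood apart from the other KO libraries of their age. Its log2 fold change was 3.46 ± 0.60, 4.01 ± 0.62 and 4.34 ± 0.63 (adjusted p 0.0020, 0.00042 and 0.00020), and at 3 weeks the adjusted p was 0.052 when only the 2 groups of that age were fitted. No difference of the fold between 2 ages passed the test (adjusted p 0.79, 0.85 and 0.58).

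Fhl2 had 1868, 2164 and 1896 CPM at 3 weeks, 1283, 1126 and 957 CPM at 6 weeks and 1081, 1151 and 1127 CPM at 10 weeks in KO. The WT values were 1741, 1725 and 1772 CPM at 3 weeks, 2271, 1625 and 1949 CPM at 6 weeks and 1612, 1557 and 1554 CPM at 10 weeks. The groups lay apart at each age, with KO above WT at 3 weeks and below it at 6 and 10 weeks, and the lower values at 6 and 10 weeks passed the test. The log2 fold change was 0.18 ± 0.12, -0.80 ± 0.12 and -0.49 ± 0.12 (adjusted p 0.34, 3.6e-05 and 0.0030). Its genotype difference was lower at 6 than at 3 weeks (-0.97 ± 0.17 log2, adjusted p 0.0047), where 1.59% of all genes were called (0.494% higher and 1.1% lower), and it was the 1 member called in that test. Within KO, Fhl2 fell by 0.82 log2 between 3 and 6 weeks (adjusted p 0.00011). Per kilobase, Fhl1 made up 23.5% ± 13.7, 45.9% ± 4.63 and 50.0% ± 18.1 of the 2 paralogues' summed level in KO at 3, 6 and 10 weeks, against 3.50% ± 0.169, 3.09% ± 0.530 and 3.92% ± 0.375 in WT (SD, n = 3). The share in single KO libraries was 51.3%, 43.6% and 42.9% at 6 weeks and 57.5%, 63.2% and 29.4% at 10 weeks, and thus varied widely between the libraries of 10 weeks. In the 9 WT libraries it was at most 4.34%, so that nearly all of the summed level there was Fhl2.

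Of the PDZ-LIM proteins, which bind alpha-actinin through the PDZ domain, Ldb3 and Pdlim5 were higher in KO at each age. Pdlim5 had 1081, 1617 and 1259 CPM at 3 weeks, 1645, 1271 and 1097 CPM at 6 weeks and 1967, 2249 and 1423 CPM at 10 weeks in KO. WT libraries held 735, 862 and 703 CPM at 3 weeks, 744, 701 and 702 CPM at 6 weeks and 713, 649 and 628 CPM at 10 weeks. No values overlapped, and the log2 fold change was 0.78 ± 0.17, 0.90 ± 0.17 and 1.503 ± 0.168 (adjusted p 0.0029, 0.00043 and 1.3e-06). Ldb3 (Cypher or ZASP), which holds the Z-disc together under contraction, averaged 1368 ± 85.4, 1258 ± 60.3 and 1832 ± 213 CPM in KO, against 819 ± 93.2, 903 ± 46.6 and 1011 ± 63.4 CPM in WT (SD, n = 3). Its log2 fold changes were 0.74, 0.48 and 0.86. Pdlim1 averaged 123 ± 19.7 CPM in KO and 69.1 ± 2.80 CPM in WT at 10 weeks (0.83 log2, adjusted p 2.3e-05), and at 6 weeks 94.9 ± 6.66 CPM in KO and 89.4 ± 8.22 CPM in WT (0.09 log2, adjusted p 0.67). That difference between ages passed the test (0.74 ± 0.17 log2, adjusted p 0.013). Pdlim3, the actinin-associated LIM protein, was called higher at 3 weeks (0.84 log2, adjusted p 0.044) and 10 weeks (0.81 log2, adjusted p 0.032), and the calls were lost in 7 and 9 of 15 alternative fits. Pdlim7 was higher at 3 weeks by 0.47 ± 0.13 log2 (adjusted p 0.017), a call lost in 4 of 15 alternative fits, and had -0.04 and 0.02 log2 at 6 and 10 weeks.

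The Xin-repeat and synaptopodin-2 proteins, which bind actin and filamin C at the Z-disc and the intercalated disc, had the largest median difference of any role at 10 weeks, 3.42 log2 over 4 genes, all 4 called. Xirp2 had 736, 3761 and 1618 CPM at 3 weeks, 8559, 4587 and 2356 CPM at 6 weeks and 10151, 6915 and 1565 CPM at 10 weeks in KO. Its WT values stood at 176, 258 and 242 CPM at 3 weeks, 225, 289 and 243 CPM at 6 weeks and 385, 429 and 385 CPM at 10 weeks. Groups were far apart at each age, with a wide spread between KO libraries at each age. Its log2 fold change was 3.18 ± 0.71, 4.36 ± 0.75 and 3.96 ± 0.74 (adjusted p 0.0098, 0.00098 and 0.0014); at 3 weeks the call was lost without WT replicate 1 or with only the 2 groups fitted (highest adjusted p 0.057). Xirp1 had 297, 246 and 833 CPM at 3 weeks, 259, 252 and 258 CPM at 6 weeks and 4050.2, 4180.0 and 814 CPM at 10 weeks in KO. In WT it had 155, 201 and 214 CPM at 3 weeks, 203, 259 and 274 CPM at 6 weeks and 259, 279.7 and 255 CPM at 10 weeks. It was called at 10 weeks alone (3.51 ± 0.57 log2, adjusted p 0.00054); at 3 weeks all KO values were above WT but replicate 3 alone far above it (1.27 ± 0.53 log2, adjusted p 0.13), and at 6 weeks the groups overlapped (0.06 ± 0.52 log2, adjusted p 0.95).

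The mean balance of the Xin pair differed between ages on the per-length scale, which was not tested. Xirp2 made up 63.8% ± 21.3, 88.6% ± 6.37 and 49.3% ± 5.24 of the summed CPM/kb of the Xin pair in KO at 3, 6 and 10 weeks, against 36.6% ± 1.64, 33.5% ± 2.87 and 42.4% ± 0.374 in WT (SD, n = 3). In single KO libraries the share was 54.7%, 88.2% and 48.6% at 3 weeks. It was 94.2%, 89.9% and 81.6% at 6 weeks and 55.0%, 44.6% and 48.4% at 10 weeks. The values of 3 weeks thus reached into the ranges of both later ages. The genotype difference of Xirp1 was larger at 10 than at 6 weeks by 3.45 ± 0.76 log2 (adjusted p 0.022, lost in 5 of 21 alternative fits), and that of Xirp2 differed by -0.40 ± 0.93 (adjusted p 0.85). Synpo2l had 269, 230.5 and 791 CPM at 3 weeks, 387, 415 and 431 CPM at 6 weeks and 1964, 2854 and 963 CPM at 10 weeks in KO. WT hearts gave 154, 229 and 256 CPM at 3 weeks, 195, 243 and 231 CPM at 6 weeks and 189, 213 and 174 CPM at 10 weeks. Like Xirp1 it had 1 high KO library at 3 weeks, replicate 3, but its KO values at 6 weeks were all above WT. Its log2 fold change was 1.01 ± 0.44, 0.88 ± 0.44 and 3.33 ± 0.48 (adjusted p 0.15, 0.18 and 0.00018), and its difference between 10 and 6 weeks (2.44 log2, adjusted p 0.041) was lost in 13 of 21 alternative fits. Synpo2 (myopodin) had log2 fold changes of 0.68 ± 0.21, 0.77 ± 0.21 and 1.71 ± 0.22 (adjusted p 0.040, 0.014 and 1.6e-05), with 704, 934 and 439 CPM in KO and 205, 199 and 229.8 CPM in WT at 10 weeks. Its call at 3 weeks was lost in 8 of 15 alternative fits.

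Titin and the M-band genes were higher in KO at 10 weeks with the exception of Obsl1. Ttn, the elastic filament of the sarcomere, had 5082, 6395 and 5929 CPM at 3 weeks, 6903, 5263 and 4908 CPM at 6 weeks and 8829, 8047 and 6468 CPM at 10 weeks in KO. The WT values were 3817, 5297 and 5036 CPM at 3 weeks, 4227, 4849 and 4423 CPM at 6 weeks and 4539.8, 5277 and 4216 CPM at 10 weeks. KO and WT overlapped at 3 weeks, lay apart at 6 weeks by little, and lay apart at 10 weeks, with log2 fold changes of 0.30 ± 0.15, 0.34 ± 0.15 and 0.73 ± 0.15 (adjusted p 0.19, 0.11 and 0.00082). Myom1, the main M-band crosslinker, was called at each age (0.57, 0.31 and 0.79 log2; adjusted p 0.00063, 0.033 and 5.8e-06), and the call at 6 weeks was lost in 5 of 15 alternative fits. At 10 weeks it averaged 2350.1 ± 228 CPM in KO and 1359.9 ± 39.3 CPM in WT (SD, n = 3). Obsl1, an obscurin relative that binds titin and myomesin, had log2 fold changes of 0.26, 0.03 and 0.18, none of them called. Cmya5 (myospryn), which binds desmin and alpha-actinin, averaged 1312 ± 80.7 CPM in KO and 779 ± 66.7 CPM in WT at 10 weeks (0.75 log2, adjusted p 3.5e-05).

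Myom2, the M-protein of fast fibres and of the heart, had 1369, 1478 and 1484 CPM at 3 weeks, 2575, 2129 and 2278 CPM at 6 weeks and 2398, 2944 and 3115 CPM at 10 weeks in KO. WT libraries held 958, 967 and 1095 CPM at 3 weeks, 1645, 2038 and 1948 CPM at 6 weeks and 1038, 1401 and 1047 CPM at 10 weeks. As with Tcap, the level peaked at 6 weeks in WT. It rose in WT between 3 and 6 weeks by 0.90 log2 (adjusted p 0.00067) and fell between 6 and 10 weeks by 0.69 log2 (adjusted p 0.0019), while in KO it rose by 0.69 between 3 and 6 weeks (adjusted p 0.0013) and moved by 0.28 ± 0.13 between 6 and 10 weeks (adjusted p 0.17). The log2 fold change over WT was 0.52 ± 0.13, 0.31 ± 0.13 and 1.28 ± 0.13 (adjusted p 0.0084, 0.087 and 2.5e-07), and it was larger at 10 than at 6 weeks by 0.97 ± 0.18 log2 (adjusted p 0.0029) in all 21 alternative fits. Myom3, the myomesin known from skeletal muscle, was the least abundant of the 3 but changed most. It had 3.24, 14.2 and 3.04 CPM at 3 weeks, 36.4, 26.0 and 21.2 CPM at 6 weeks and 52.1, 100.2 and 15.2 CPM at 10 weeks in KO. Its WT values stood at 1.75, 2.03 and 2.60 CPM at 3 weeks, 3.85, 3.97 and 2.83 CPM at 6 weeks and 1.92, 2.69 and 2.15 CPM at 10 weeks. All KO values were above WT at each age, but at 3 weeks replicate 2 alone was far above it. Its log2 fold change over WT was 1.67 ± 0.75, 2.96 ± 0.68 and 4.63 ± 0.74 (adjusted p 0.16, 0.0067 and 0.00043), the last the largest of all 33 genes at 10 weeks. Per kilobase it still made up only 1.22% ± 0.856 of the 3 myomesins' summed level in KO at 10 weeks, against 0.100% ± 0.0103 in WT (SD, n = 3).

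Mybpc3, cardiac myosin-binding protein C of the thick filament, had 5980.3, 5156 and 5409.7 CPM at 3 weeks, 6967, 6931 and 6695 CPM at 6 weeks and 6373, 8757 and 9209 CPM at 10 weeks in KO. In WT it had 3278, 3979.8 and 4441 CPM at 3 weeks, 5295, 5556 and 6046 CPM at 6 weeks and 4184, 4592 and 4202 CPM at 10 weeks. Groups did not overlap at any age, and the log2 fold change was 0.50 ± 0.13, 0.29 ± 0.13 and 0.91 ± 0.13 (adjusted p 0.011, 0.12 and 1.8e-05). The call at 3 weeks was lost without WT replicate 1 (adjusted p 0.084). It was the most abundant of the 34 genes per kilobase in WT at 10 weeks, at 1039 CPM/kb, where Tcap ranked 4 at 619 CPM/kb. In KO at 10 weeks Tcap and Mybpc3 stood at 1996 and 1949 CPM/kb, in ranks 1 and 2.

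**Figure D3:**
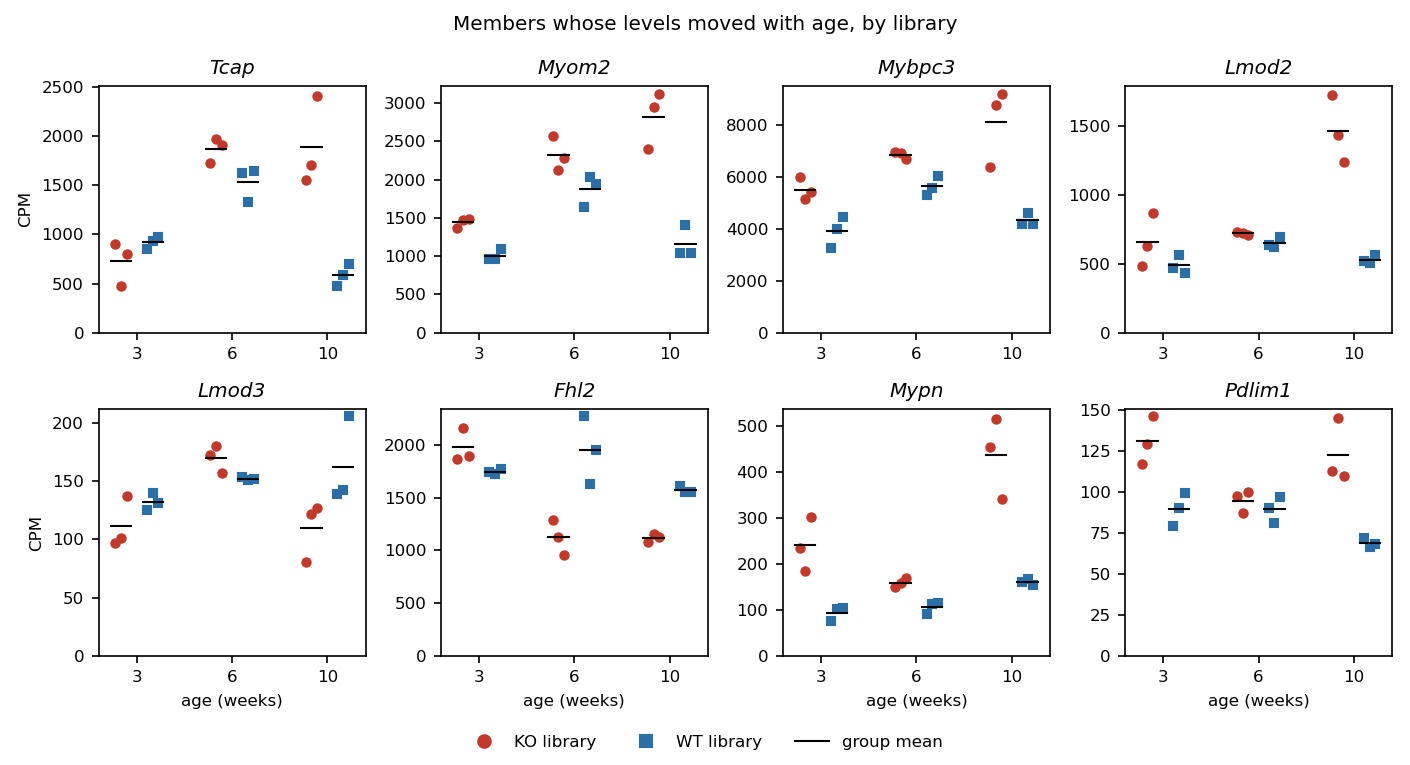
CPM in each library (vertical axis, from 0) by age (horizontal axis) for 8 genes whose level or genotype difference moved with age. Red circles are KO libraries, blue squares WT libraries and black bars group means. At 10 weeks the WT libraries of Tcap lie between 475 and 699 CPM, below the KO libraries, and the KO libraries of Fhl2 lie below WT at 6 and 10 weeks.

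At the pointed ends of the thin filaments, leiomodin-2 and leiomodin-3 differed in opposite directions at 10 weeks. Lmod2, the cardiac leiomodin that lengthens thin filaments, had 484, 628 and 866 CPM at 3 weeks, 730.0, 722 and 706 CPM at 6 weeks and 1723, 1431 and 1234 CPM at 10 weeks in KO. WT hearts gave 469, 559 and 435 CPM at 3 weeks, 638, 618 and 695 CPM at 6 weeks and 518, 502 and 562 CPM at 10 weeks. The groups overlapped at 3 weeks, lay close together at 6 weeks and were far apart at 10 weeks, with log2 fold changes of 0.43 ± 0.16, 0.15 ± 0.16 and 1.47 ± 0.16 (adjusted p 0.066, 0.56 and 6.5e-07). The difference was larger at 10 than at 6 weeks by 1.33 ± 0.22 log2 (adjusted p 0.0011) and larger than at 3 weeks by 1.04 ± 0.22 (adjusted p 0.0075). Lmod3, the form known from skeletal muscle, had 96.7, 101 and 137 CPM at 3 weeks, 172, 180.4 and 157 CPM at 6 weeks and 80.5, 121 and 126 CPM at 10 weeks in KO. The WT values were 125, 139.8 and 131 CPM at 3 weeks, 153, 151 and 152 CPM at 6 weeks and 139, 142 and 205 CPM at 10 weeks. It was lower in KO at 10 weeks (-0.57 ± 0.16 log2, adjusted p 0.013), with no overlap, and the call was lost without KO replicate 1, the lowest, or without WT replicate 3, the highest (highest adjusted p over all alternatives 0.13). Per kilobase, Lmod3 made up 6.47% ± 2.24 of the pair in KO at 10 weeks, against 21.4% ± 2.82 in WT (SD, n = 3).

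Tmod1, the tropomodulin that caps pointed ends and so limits filament length, was higher at each age by a nearly constant amount (0.45 ± 0.10, 0.38 ± 0.10 and 0.44 ± 0.10 log2; adjusted p 0.0036, 0.0068 and 0.0018), and averaged 290.1 ± 23.7 CPM in KO and 214 ± 11.6 CPM in WT at 10 weeks (SD, n = 3). Of its exon bases 32.6% are shared with Tstd2 on the opposite strand. The median count was 258 for Tstd2 and 4509.5 for Tmod1, and because the strand setting is not given, reads of the pair cannot be told apart there. Smpx, a small protein of the muscle membrane skeleton, was called at 10 weeks alone (0.78 ± 0.23 log2, adjusted p 0.019), with 215, 232 and 152 CPM in KO and 119, 114 and 116 CPM in WT; the call was lost in 4 of 15 alternative fits.

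Between ages, the genotype difference grew for more of the genes from 6 to 10 weeks than from 3 to 6 weeks. It was larger at 10 than at 6 weeks for 9 genes (Tcap, Myot, Mypn, Pdlim1, Synpo2l, Xirp1, Myom2, Mybpc3 and Lmod2), where 5.75% of all genes were called (3.12% larger and 2.63% smaller), and smaller for 0. Against 3 weeks it was larger at 10 weeks for 5 genes (Tcap, Myot, Synpo2l, Myom2 and Lmod2) and lower for Fhl2, where 5.76% of all genes were called (2.82% larger and 2.94% smaller). Within KO, 13 genes rose and 1 (Lmod3) fell between 6 and 10 weeks (12.7% of all genes called, 6.52% up and 6.14% down), and 5 rose and 4 fell between 3 and 6 weeks (11.6%, 5.34% up and 6.25% down). Within WT, 3 rose between 3 and 6 weeks (5.18% called, 2.94% up and 2.24% down), and 1 rose (Mypn) and 2 fell (Tcap and Myom2) between 6 and 10 weeks (8.77% called, 3.64% up and 5.12% down). These comparisons share groups, so they are not independent of each other.

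By the median, KO libraries of one age were spread more widely in these genes than WT libraries at 3 and 10 weeks. At 6 weeks they were not. The median SD of log2(CPM + 0.5) between replicates was 0.275, 0.103 and 0.322 in KO at 3, 6 and 10 weeks for the 33 genes, against 0.190, 0.128 and 0.0949 in WT. Over all genes tested it was 0.199, 0.150 and 0.221 in KO and 0.177, 0.154 and 0.146 in WT. At 10 weeks KO replicate 3 was the lowest of its group for 22 of the 33 genes, among them Fhl1, Xirp1, Xirp2, Flnc, Synpo2l and Myom3, yet the highest for Tcap, Obsl1, Myom2, Mybpc3 and Lmod3. At 3 weeks KO replicate 2 was the highest for Fhl1, Xirp2 and Myom3 and the lowest for Tcap, Xirp1 and Synpo2l, while replicate 3 was the highest for Flnc, Xirp1 and Synpo2l. At 6 weeks KO replicate 1 was the highest for 26 genes. In WT at 3 weeks replicate 1 was the lowest for 24, and without it 10 rather than 19 genes were called at that age, with 1309 rather than 2419 genes called in all. Lowest and highest libraries were counted for the 33 genes alone, so the share over all genes is not known.

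**Figure D4:**
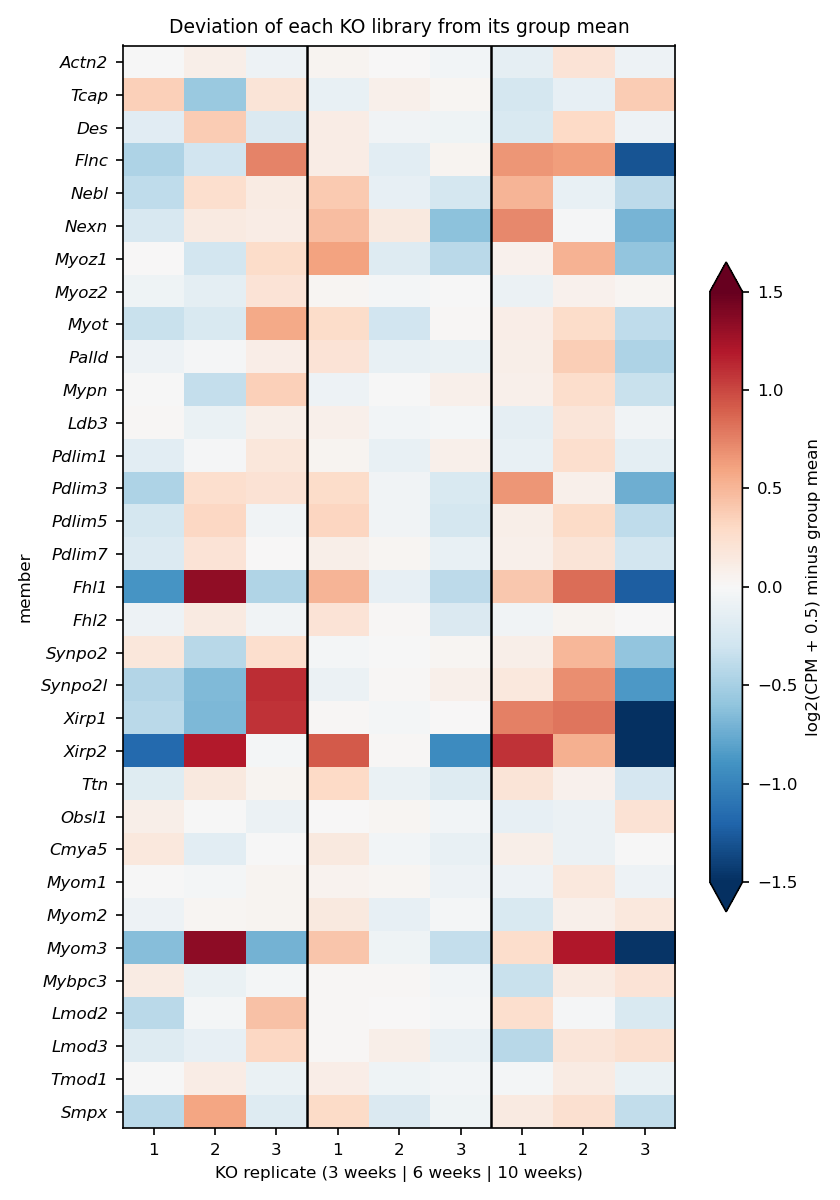
Deviation of each of the 9 KO libraries (columns, in 3 age groups) from the mean of its own group, on the log2(CPM + 0.5) scale, for the 33 genes (rows). Red is above and blue below the group mean, and the scale ends at 1.5 in each direction. At 10 weeks replicate 3 is blue for most rows, and Tcap, Obsl1, Myom2, Mybpc3 and Lmod3 are red there.

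For some of the genes the level over the 9 KO libraries went with that of Csrp3. A permutation over all 9 libraries mixes the 3 ages. Its p-values therefore do not separate differences between ages from those between libraries of one age. Over the 9 KO libraries, log2(CPM + 0.5) of Fhl1 correlated with that of Csrp3 with Pearson r = 0.98 (exact permutation test, adjusted p = 0.00036) and Spearman rho = 0.98 (exact permutation, adjusted p = 0.0033). Relations were computed for the 33 genes in each genotype, 66 in all, and p-values were adjusted over them. The relation to Csrp3 was chosen after its values were seen, and both values of a point come from the same library and its scaling. Other genes were not correlated with Csrp3, so the share of all genes that would pass is not known. Without the 2 libraries farthest from the median Csrp3 level (KO replicate 1 at 3 weeks and replicate 2 at 10 weeks) r was 0.97. With each age centred on its own mean r was 0.99 (exact permutation within ages, p = 0.0046, the smallest that 216 orders allow, adjusted p = 0.10). Xirp2 and Pdlim5 passed on both measures, Xirp2 with r = 0.90 and rho = 0.88 (exact permutation, adjusted p = 0.039 and 0.041) and Pdlim5 with r = 0.89 and rho = 0.87 (exact permutation, adjusted p = 0.039 and 0.0496). Within ages r was 0.91 for Xirp2 and 0.95 for Pdlim5 (exact permutation within ages, adjusted p = 0.11 and 0.10). None of the 66 relations passed within ages, and a single one at the smallest p could not have, so the values within ages are descriptions. Smpx and Myom3 passed on Pearson's r alone (r = 0.87 and 0.84, exact permutation, adjusted p = 0.039 each). Without the same 2 libraries r was 0.85 for Xirp2, 0.78 for Pdlim5, 0.88 for Smpx and 0.63 for Myom3. Tcap had r = 0.03 over the 9 KO libraries and r = -0.93 within ages (exact permutation, p = 0.019, adjusted p = 0.14). In the 9 WT libraries Fhl1 had r = -0.18 and Xirp2 r = -0.25; Mybpc3, Myom2 and Myom3 passed there (r = 0.84, 0.86 and 0.84), and within ages their r was 0.33, 0.21 and 0.38 (exact permutation within ages, adjusted p = 0.83, 0.93 and 0.83).

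**Figure D5:**
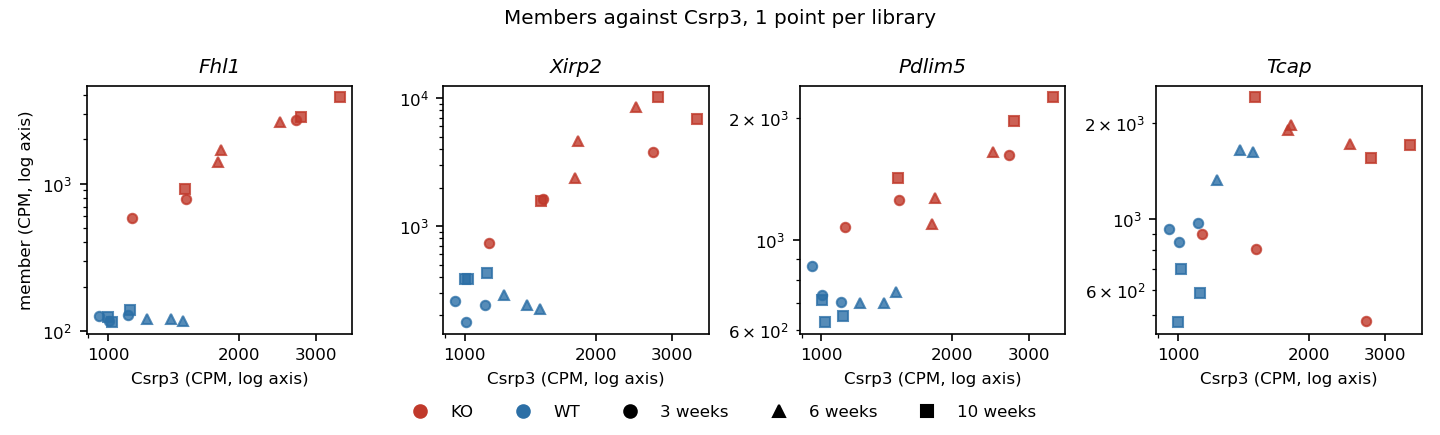
CPM of Fhl1, Xirp2, Pdlim5 and Tcap (vertical log axes) against CPM of Csrp3 (horizontal log axis), with 1 point for each library. Red points are KO and blue points WT; circles, triangles and squares are 3, 6 and 10 weeks. The 9 KO points of Fhl1 lie along 1 line (r = 0.98), and the WT points are level, between 114 and 138 CPM.

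Other genes of the same structures were counted from a list of 30, of which 29 were tested. Of these genes of other Z-disc, titin-binding or M-band proteins, 19, 11 and 21 were higher and 2, 4 and 3 lower in KO at 3, 6 and 10 weeks, with median log2 fold changes of 0.57, 0.29 and 0.75. Over all genes 8.65%, 11% and 14.6% were called higher and 6.68%, 12.8% and 14.7% lower at these ages. The numbers lower were close to the share over all genes at 3 and 6 weeks and below it at 10 weeks. The stretch-responsive ankyrin repeat genes Ankrd1 and Ankrd2, which bind titin's I-band, had the largest increases. Ankrd1 averaged 2568 ± 1547, 7633 ± 1474 and 11987 ± 3599 CPM in KO, against 366 ± 38.5, 636 ± 169.9 and 726 ± 207 CPM in WT (SD, n = 3; log2 fold change 2.81, 3.59 and 4.05, adjusted p 0.0014, 0.00013 and 4.6e-05). Ankrd2 summed to 1081, 2357 and 2924 counts over the 3 KO libraries of each age, against 6, 15 and 15 in WT, and at 3 weeks 1031 of the KO counts were in replicate 2, the 3-week KO library that was also highest in Fhl1. The largest decreases of this list were in Capn3, a titin-bound protease (-1.44, -0.93 and -0.58 log2), in Lrrc39, an M-band protein (-0.43 log2 at 3 weeks and -0.43 at 10 weeks), and in Trim55, a titin-kinase-binding ubiquitin ligase, at 6 weeks (-0.80 log2).

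Relatives of the members in other cells or muscles made a list of 23, of which 20 were tested. Of these, 4, 5 and 7 were higher and 2, 3 and 3 lower at 3, 6 and 10 weeks, with median log2 fold changes of 0.16, 0.13 and 0.31. The lower counts at 6 and 10 weeks were close to the 12.8% and 14.7% of all genes called lower, where 6.68% were at 3 weeks; 8.65%, 11% and 14.6% of all genes were called higher. Synm (synemin, a partner of desmin) was higher by 1.36, 2.06 and 2.25 log2, Synpo (synaptopodin) by 1.37 log2 at 3 weeks and 0.90 at 6 weeks, and Actn1 (non-muscle alpha-actinin) by 1.13 log2 at 10 weeks. Tmod4, the skeletal muscle tropomodulin, was lower at each age, with log2 fold changes of -0.86, -1.21 and -1.22. Pdlim4 was lower at 6 weeks (-1.14) and 10 weeks (-0.95), and Csrp2, the smooth muscle relative of Csrp3, at 3 weeks (-0.56).

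Markers of the cell types in the tissue were read beside these results. Summed over 10 cardiomyocyte markers, CPM at 3 weeks ran from 112716 to 116199 in KO and 86658 to 101049 in WT. At 6 weeks the KO sums ran from 98391 to 110969 and the WT sums from 106448 to 120647, and at 10 weeks the KO sums from 117492 to 132958 and the WT sums from 104969 to 114265. The sums were higher in every KO library than in any WT library of the same age at 3 and 10 weeks and overlapped at 6 weeks. Myh6 weighed most in them (median 43772 CPM over all libraries), and single markers did not all follow the sums. Myh6, Actc1 and Ryr2 were highest in a KO library of 10 weeks. Tnnt2, Tnni3, Myl2, Myl3 and Tnnc1 were highest in WT replicate 1 at 6 weeks. Atp2a2 was highest in WT replicate 3 at 10 weeks and Pln in WT replicate 1 at 3 weeks. Skeletal muscle myosins were at or near 0: Myh1, Myh2 and Myh4 had at most 0.443, 0.288 and 0.0604 CPM and were at 0 in 12, 8 and 15 of the 18 libraries. In the skeletal muscle list the 12 markers summed to 58.9 to 130.3, 94.9 to 187 and 97.4 to 237 CPM in KO at 3, 6 and 10 weeks, against 48.5 to 92.5, 56.3 to 76.3 and 53.6 to 71.3 CPM in WT, and overlapped at 3 weeks. Myl1 and Mybpc2 made up nearly all of these sums, and no other marker of the list exceeded 3.17 CPM in a library. Myl1 was highest, at 154 CPM, in KO replicate 1 at 10 weeks, a library rich in atrial transcripts. Mybpc2 was highest, at 78.5 CPM, in WT replicate 3 at 3 weeks. Without the 3 libraries rich in atrial transcripts, 14 members were higher and 1, Lmod3, lower at 3 weeks, 12 were higher and 1 lower at 6 weeks, and 24 were higher and 1 lower at 10 weeks. In that fit of 16042 genes, 7.94%, 9.66% and 13.9% of all genes were called higher and 6.97%, 11% and 13.1% lower at the 3 ages. The calls of Flnc, Myoz1, Myot, Synpo2 and Cmya5 at 3 weeks, of Synpo2 at 6 weeks and of Pdlim3, Smpx and Lmod3 at 10 weeks were lost with them. Summed over 9 smooth muscle and pericyte markers, CPM ran from 1007 to 1162, 683 to 822 and 562 to 778 in KO at 3, 6 and 10 weeks, against 1515 to 1559, 1025 to 1129.7 and 1080.5 to 1432 in WT, lower in every KO library at each age; Flnc, Des, Synpo2, Palld and Pdlim7 are also expressed in smooth muscle. Over 8 fibroblast markers the sums were higher in every KO library at each age, at 1960.04 to 2507, 1728 to 2393 and 1189.5 to 1319.9 CPM in KO, against 1726 to 1914, 1029 to 1159 and 901 to 1025 CPM in WT, and Palld is also expressed in fibroblasts. Over 7 endothelial markers they were 723 to 959, 635 to 782 and 719 to 767 CPM in KO, against 928 to 977, 813 to 901 and 904 to 1089.96 CPM in WT, lower in every KO library at 6 and 10 weeks and overlapping at 3 weeks. The 7 macrophage markers summed to 268 to 286, 221 to 268 and 169.7 to 207 CPM in KO, against 294 to 348, 274 to 345 and 222 to 260.2 CPM in WT, lower in every KO library at each age. Those of epicardium and mesothelium, 5 in number, ran from 21.3 to 41.3, 17.7 to 27.6 and 25.5 to 66.3 CPM in KO and from 11.1 to 18.1, 9.51 to 32.4 and 8.37 to 14.3 CPM in WT. These sums overlapped at 6 weeks. At 10 weeks 4 of the 5 markers were called higher, where 14.6% of all genes were. Upk3b, Msln, Upk1b and Krt19 were highest in KO replicate 1 at 10 weeks, and Wt1 in KO replicate 3 at 3 weeks. Both libraries were rich in atrial transcripts. For 5 red cell markers the sums were 938 to 2098, 534 to 1549 and 625 to 1383 CPM in KO, against 2307 to 3914, 985 to 1623 and 499 to 683 CPM in WT, lower in every KO library at 3 weeks and overlapping at 6 and 10 weeks. Single markers did not all follow these sums either. Pecam1 and Cdh5 (endothelium) and C1qa and C1qb (macrophages) were highest in a KO library. So were Cnn1, Pdgfrb and Cspg4 (smooth muscle and pericytes). Tcf21 and Dpt (fibroblasts) were highest in a WT library. The other endothelial, macrophage, smooth muscle and pericyte markers were highest in a WT library, and the other fibroblast markers in a KO library. The part of all these markers in the results was not tested.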

How the data were processed

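RNA was sequenced from the left ventricular mid wall in 18 libraries, 3 in each of 6 groups of genotype and age. The authors deposited whole-number read counts per gene for each library. Per the submitters' processing notes, the tools were Trimmomatic 0.36, STAR 2.5.2b and featureCounts of Subread 1.5.2, with genome build GRCm38; the strand setting, annotation and handling of multi-mapped reads are not given in the sources used here. All columns were assigned to a library, so 0 were left unused.

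Counts were filtered with filterByExpr (minimum count 10, total 15), which left 15778 genes, and scaled with TMM. A robust quasi-likelihood model (edgeR 4.0.16, R 4.3.3) with a mean for each of the 6 groups was fitted to all 18 libraries, and 10 contrasts were tested with Benjamini-Hochberg adjustment over all genes tested and a threshold of 0.05. The fit was also run on simulated counts with known fold changes. That simulation gave all genes the same dispersion (spread between replicates), the common value of the main fit, 0.0252. It therefore does not cover genes with a wider spread between replicates. CPM used TMM-scaled library sizes; CPM/kb divided by the exon length in the tables; spreads and correlations used log2(CPM + 0.5). Alternatives were RLE size factors, leaving out mitochondrially encoded genes, no count filter, a minimum of 10 counts in 3 libraries, DESeq2 1.42.0, limma 3.58.1 voom, a replicate block, the groups of the contrast alone, leaving out the libraries with Myl4 over 10 times its median, and leaving out each library in turn. Totals of 14980968 to 23001047 counts per library leave low counts, such as those of Myoz1 and Myoz3, imprecise.

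The members, the gene lists and the tests were chosen with earlier results of these data known. All members are described; other genes are named if they are Csrp3, a marker, or among the 2 largest called changes in each direction and contrast of a list of other sarcomere genes or of relatives. Equal replicate numbers gave no sign of pairing between libraries of KO and WT. Deviations of same-numbered libraries from their group means correlated between -0.084 and 0.085, and those of differently numbered libraries between -0.091 and 0.125. Whether libraries shared a source is not given in the labels.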

Additional observations from a re-analysis of the deposited data

Results flagged for a closer look

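For 10 of the genes the KO to WT difference was itself different between ages by the test of that difference in the edgeR fit (adjusted p under 0.05), and each such value is given on the log2 scale as the later age minus the earlier one.

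Between 3 and 6 weeks the difference of Fhl2 changed by -0.97. Between 6 and 10 weeks it grew for Tcap by 1.40, for Myot by 1.52, for Mypn by 0.86, for Pdlim1 by 0.74, for Synpo2l by 2.44, for Xirp1 by 3.45, for Myom2 by 0.97, for Mybpc3 by 0.62 and for Lmod2 by 1.33. Between 3 and 10 weeks it grew for Tcap by 2.02, for Myot by 2.54, for Synpo2l by 2.31, for Myom2 by 0.76 and for Lmod2 by 1.04, and for Fhl2 it changed by -0.67.

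For Fhl2 between 3 and 6 weeks, for Tcap, Lmod2 and Myom2 in both later comparisons, for Pdlim1 between 6 and 10 weeks and for Myot between 3 and 10 weeks, the call was kept in all 21 alternatives. For Mybpc3, Mypn and Synpo2l between 6 and 10 weeks it was lost in 11, 10 and 13 of the 21, and for Synpo2l between 3 and 10 weeks in 13. Xirp1 lost it in 5, and Myot between 6 and 10 weeks and Fhl2 between 3 and 10 weeks in 1 each.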

How the results depend on the processing

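The number of listed genes called for KO against WT lay between 11 and 17 at 6 weeks and between 25 and 28 at 10 weeks in every alternative run. At 3 weeks it was 19 and lay between 10 and 17 when 1 library was left out, with 10 without WT replicate 1. Over all genes 2419, 3751 and 4625 were called at 3, 6 and 10 weeks. The alternatives called 1309 to 2787, 2653 to 4671 and 3511 to 4869 of all genes. No call changed its sign in any alternative run; of 106 calls over the 10 comparisons 69 were kept throughout and 34 were lost in at least 1 fit without a library.

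The tests between ages moved more. For the genotype difference at 6 minus 3 weeks, 1 gene was called, against 10 with no filter on low counts, 3 with DESeq2 and 1 to 2 without a library. At 10 minus 6 weeks 9 were called, against 16 with no filter, 14 with DESeq2 and 5 to 15 without a library (15 without KO replicate 3 at 10 weeks). At 10 minus 3 weeks 6 were called, against 14 with no filter, 10 with DESeq2 and 5 to 12 without a library (12 without the same KO library). Within KO, 9 were called at 6 against 3 weeks, against 16 with no filter, 5 without the libraries rich in atrial transcripts and 4 to 8 without a library; at 10 against 6 weeks 14 were called, against 9 with only the 2 groups fitted and 11 to 17 without a library. Within WT, 3 were called at 6 against 3 weeks, against 10 with no filter and 1 to 3 without a library; at 10 against 6 weeks 3 were called, against 11 with no filter, 7 with DESeq2, 11 with only the 2 groups fitted and 2 to 4 without a library. Over all genes the numbers called moved as well. For the 3 genotype differences, in the order above, 251, 908 and 909 of all genes were called. The alternatives called 84 to 880, 460 to 1598 and 484 to 1497. Within KO 1829 and 1996 of all genes were called, against 1089 to 2219 and 874 to 2634 in the alternatives. Within WT 818 and 1383 were called, against 199 to 1495 and 555 to 2463. The cause was not tested.

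With replicate number as a block, 17, 14 and 27 genes were called for KO against WT at 3, 6 and 10 weeks, 1, 9 and 5 for the 3 differences between ages, and 9, 15, 3 and 3 within KO and WT. Over all genes the numbers called with the block lay within the ranges given above. Same-numbered libraries share a number and not a known source. Depth limits Myoz1, with at most 26 counts in a library.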
